A study of Mus musculus with 2 samples.

Results

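Forkhead box (Fox) genes encode transcription factors that share a winged-helix DNA-binding domain and are sorted by letter into subfamilies. The set described here is every protein-coding gene of the mouse annotation whose symbol is Fox, a letter and a number. It holds 44 genes of 19 subfamilies, out of 21474 protein-coding genes and 43346 genes in all in the deposited tables. The rule that picks them uses the symbol and no measured value.

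RNA was measured in hearts of mouse embryos of strain B6NCrl at embryonic day 10.5, when the heart has looped and its chambers and outflow tract are forming. There was 1 group and no treatment, mutation or control. Replicate 1 was a pool of 69 embryos and replicate 2 a separate pool of 51, each of males and females together, so each value is an average over a pool and over every cell type in the dissected organ. Each library was made from 10 ng of total RNA longer than 200 nt, to which ERCC spike-ins, artificial RNAs of known amount, had been added.

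Forkhead factors work as activators, repressors or pioneer factors, proteins that bind their sites in closed chromatin. In the embryo several of them mark tissue layers: Foxa genes the endoderm, Foxf genes the mesoderm around the gut and lung, and Foxc genes the mesenchyme and vessels of the head, arches and outflow tract. Others act in most cells, such as Foxm1 in cell division, Foxo genes under insulin and growth factor signals, and Foxk genes in metabolism.

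The libraries held 45205713 and 41070978 expected counts (replicate 1 and replicate 2), of which 43295923 and 39786163 lay on mouse genes. All 10 of 10 heart muscle markers were detected, led by Actc1 (6437 and 11048 TPM), Myl7 and Myl2. TPM is a level per transcript length, relative to the rest of the library. Ratios between the libraries are replicate 1 over replicate 2 after TMM scaling of the counts. A gene was called different when it had a mean count of at least 50, a ratio of at least 2-fold and deposited TPM intervals that did not overlap between libraries. This call compares 2 pools and carries no p-value, because 1 group of 2 libraries leaves no conditions to test. The common biological coefficient of variation over 17547 genes was 0.301. Across libraries, fewer cells of a type and less RNA per cell cannot be told apart.

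Of the 44 forkhead genes, 17 were detected, at 1 TPM or more in both libraries. This is 38.6%, against 57.0% of all protein-coding genes. A further 7 reached 1 TPM in 1 library, which was replicate 1 in each case, and 20 stayed below 1 TPM in both. Among those 20, 7 had a count of 0 in both libraries. The summed level of the set was 331 TPM in replicate 1 and 244 TPM in replicate 2 (287.5 ± 61.9, SD, n = 2).

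Of the 24 members with a mean count of 50 or more, 9 were called higher in replicate 1, which is 37.5%, where 4.74% of all genes with that mean count were called in that direction. None of the 24 was called higher in replicate 2, where the background was 2.31%. The 9 were Foxf1, Foxf2, Foxa2, Foxa3, Foxl1, Foxe1, Foxd2, Foxi2 and Foxp2. In replicate 2, 7 of the 9 had under 50 counts, so they passed the count minimum through replicate 1. Over the 29 members with a mean count of 10 or more the median log2 ratio was 0.64, against 0.00 over all 17547 genes with that mean count, and 20 of the 29 (69.0%) had a ratio above 0, against 50.3% of those genes. Foxa1, Foxd1, Foxf2 and Foxq1 are among members with under 10 counts in replicate 2, which passed this lower minimum through replicate 1.

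**Figure D1:**
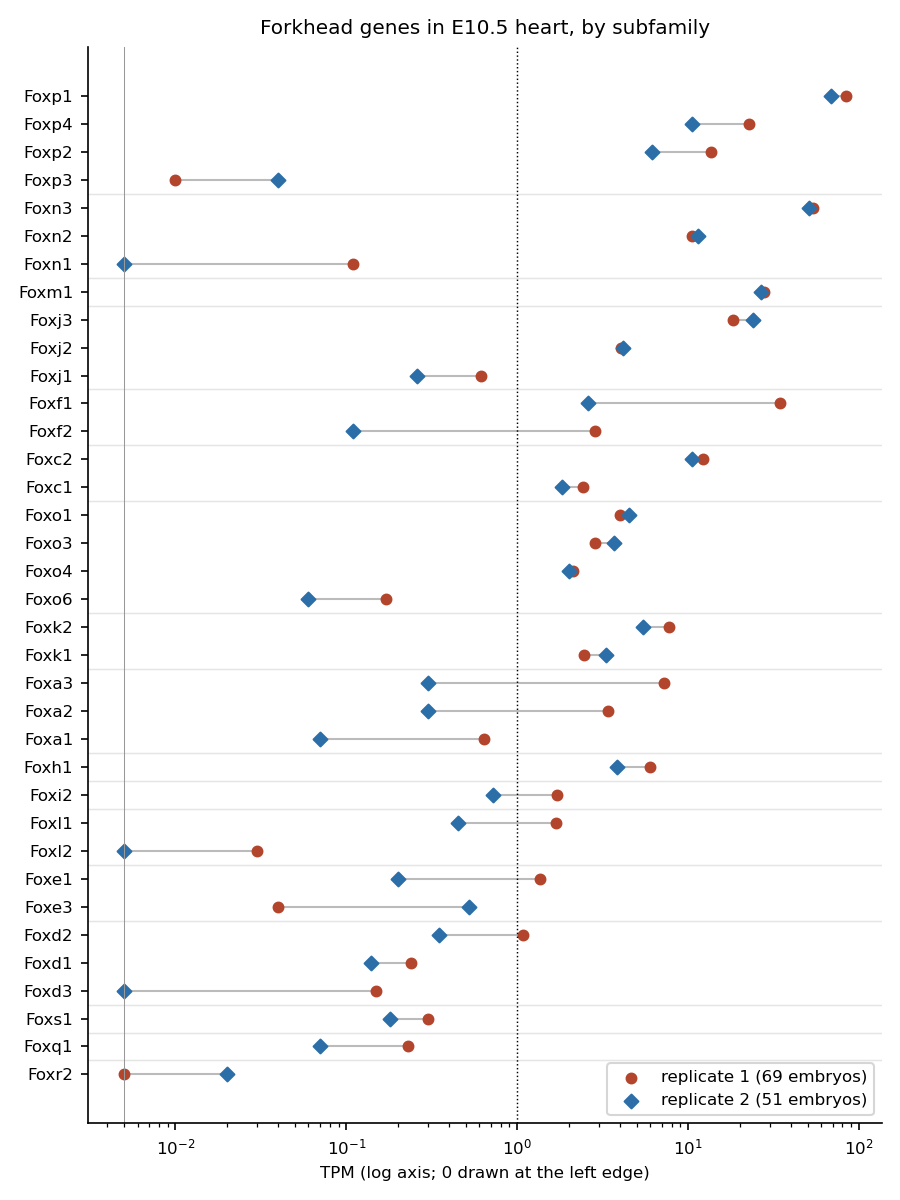
TPM (log axis) of the forkhead genes with any count that are described by name, grouped by subfamily letter in order of summed level. Circles are replicate 1, diamonds are replicate 2, and the dotted line marks 1 TPM. Foxp1, Foxn3 and Foxm1 have paired points at the top of their subfamilies, while those of Foxf1, Foxa3, Foxa2 and Foxf2 lie far apart.

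The promoters of members whose data bear on a start site or that differed most are printed first, from RefSeq (GRCm38.p6, the mm10 assembly). Each window runs from 250 bases before to 50 bases after an annotated start, on the gene's own strand, and capitals mark CG dinucleotides. Windows were found for 28 of the 44 members, 33 windows in all. The median window of a member held 22 CG dinucleotides, against 7 over all 32851 windows.
The 3 Foxp1 windows, all on the minus strand of chromosome 6, are shown because the gene is the most abundant member and its starts carried unequal levels. They lie at chr6:99520944-99521243 (upstream), chr6:99266466-99266765 (middle) and chr6:99028249-99028548 (downstream).
Foxp1 upstream: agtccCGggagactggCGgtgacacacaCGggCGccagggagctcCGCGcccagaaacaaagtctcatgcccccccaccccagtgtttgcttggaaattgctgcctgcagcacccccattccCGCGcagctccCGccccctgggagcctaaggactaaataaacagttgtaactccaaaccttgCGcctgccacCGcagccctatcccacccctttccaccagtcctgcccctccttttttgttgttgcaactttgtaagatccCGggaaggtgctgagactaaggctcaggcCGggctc
Foxp1 middle: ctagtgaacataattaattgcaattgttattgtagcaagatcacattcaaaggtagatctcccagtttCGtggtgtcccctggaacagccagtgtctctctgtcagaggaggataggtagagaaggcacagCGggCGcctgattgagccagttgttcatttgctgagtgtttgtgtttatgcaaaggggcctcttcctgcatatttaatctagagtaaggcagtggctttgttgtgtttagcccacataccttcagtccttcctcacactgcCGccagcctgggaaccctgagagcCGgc
Foxp1 downstream: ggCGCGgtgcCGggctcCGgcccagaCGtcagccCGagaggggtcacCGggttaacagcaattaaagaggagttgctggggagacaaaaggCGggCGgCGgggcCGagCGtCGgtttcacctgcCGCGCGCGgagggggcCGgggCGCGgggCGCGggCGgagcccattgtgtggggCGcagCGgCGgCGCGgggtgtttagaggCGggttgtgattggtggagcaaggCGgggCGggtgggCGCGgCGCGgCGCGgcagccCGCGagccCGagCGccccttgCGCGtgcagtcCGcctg
The Foxa3 window (chr7:19023490-19023789, minus strand) and the Foxf2 window (chr13:31625566-31625865, plus strand) are shown because these members had the highest ratios among those called.
Foxa3: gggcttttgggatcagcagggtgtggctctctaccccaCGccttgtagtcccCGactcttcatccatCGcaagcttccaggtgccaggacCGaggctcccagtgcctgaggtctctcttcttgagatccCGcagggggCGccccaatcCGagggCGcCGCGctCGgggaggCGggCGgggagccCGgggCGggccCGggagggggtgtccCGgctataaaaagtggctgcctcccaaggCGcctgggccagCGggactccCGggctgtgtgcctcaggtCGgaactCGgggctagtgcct
Foxf2: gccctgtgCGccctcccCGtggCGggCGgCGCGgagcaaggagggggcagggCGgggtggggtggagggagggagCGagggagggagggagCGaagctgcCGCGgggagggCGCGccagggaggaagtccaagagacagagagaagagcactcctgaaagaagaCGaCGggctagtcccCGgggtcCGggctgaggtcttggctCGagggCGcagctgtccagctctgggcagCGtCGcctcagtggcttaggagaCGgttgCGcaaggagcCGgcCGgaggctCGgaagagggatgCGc
The downstream Foxp1 window held 44 CG dinucleotides, the upstream one 13 and the middle one 5. Foxa3 held 22 and Foxf2 27. The letters TATAAA (either strand) were in 3 of the 33 member windows (9.09%), those of Foxa2, Foxa3 and Foxp3, against 13.6% of all windows. In Foxa3 they begin 36 bases before the start. The forkhead motif TGTTTAC (either strand) was in 1 of 33 (3.03%), that of Foxa1, against 3.65% of all windows. The GLI motif GACCACCCA (either strand) was in 0 of 33, against 0.253% of all windows. A match or its lack describes the letters in these windows only.

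The Foxp subfamily, repressors that bind as dimers, had the highest summed level, with 120.0 TPM in replicate 1 and 85.0 TPM in replicate 2 (102.5 ± 24.8, SD, n = 2). It held 35.5% of the TPM of all forkhead genes on average. Foxp1, which is needed for outflow tract septation and for normal heart muscle proliferation in the mouse, was the most abundant forkhead gene. It spans chr6:98925338-99522721 and had 83.8 TPM (6841 counts) in replicate 1 and 68.3 TPM (4780 counts) in replicate 2. Its log2 ratio was 0.27, well inside 2-fold.

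Foxp4, expressed in the foregut and in the early heart, had 22.7 TPM (1972 counts) in replicate 1 and 10.5 TPM (877 counts) in replicate 2. The ratio of scaled counts was 1.89-fold (95% counting interval 1.75 to 2.05), just short of the 2-fold limit, and by deposited TPM it passed. Foxp2, known from lung and brain and for its role in human speech, had 13.6 TPM (1756 counts) in replicate 1 and 6.13 TPM (633 counts) in replicate 2. Its ratio was 2.33-fold (2.13 to 2.56), and it was called higher in replicate 1, but with spike-in scaling its log2 ratio was 0.92 and it was not called. Foxp3, the factor of regulatory T cells, had 1.18 counts in replicate 1 and 3.57 in replicate 2. The 3 abundant Foxp genes thus spanned log2 ratios of 0.27 to 1.22. The 8 cofactors of Foxp proteins listed here, corepressors led by Ctbp1, Hdac1 and Hdac2, were all detected, and 0 were called in either direction (median log2 ratio 0.10).

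Foxn genes came second, at 63.5 ± 1.51 TPM (SD, n = 2). Foxn3, a repressor linked to cell cycle checkpoints, had 53.9 TPM (2468 counts) in replicate 1 and 51.0 TPM (2326 counts) in replicate 2. Foxn2 had 10.6 and 11.4 TPM in the same order. Their log2 ratios were -0.16 and -0.23, so both libraries gave close levels. Foxn1, the factor of thymus epithelium, had 10 counts in replicate 1 and 0 in replicate 2. Set against a floor of 3 counts per library, with the 10 counts taken as exact, it was at least 2.80-fold higher in replicate 1; the 95% counting interval of the ratio began at 1.88-fold. Foxn4 had 0 in both.

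Foxm1 drives genes of the G2 and M phases of the cell cycle, and mouse embryos that lack it have thin heart muscle. It had 27.6 TPM (2849 counts) in replicate 1 and 26.7 TPM (2614 counts) in replicate 2, with a log2 ratio of -0.13. All 15 of its listed target genes were detected, led by Cks1b (490 and 394 TPM), Cdk1 (385 and 347 TPM) and Birc5 (278 and 233 TPM), and 0 were called in either direction (median log2 ratio 0.12). The 6 listed members of the MMB complex, which binds with Foxm1 at such genes, were detected as well, with 0 called (median 0.06). Foxm1 and the medians of both lists were thus at like levels in both pools, which does not show that each listed gene was. Over all genes with a mean count of 50 or more, 4.74% were called higher in replicate 1 and 2.31% in replicate 2. A count of 0 in lists this small is near those shares, here and in the other lists with 0 called.

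Of the Foxj genes, Foxj3, an activator of Mef2c in muscle, had 18.3 TPM (2262 counts) in replicate 1 and 23.95 TPM (2690 counts) in replicate 2, a log2 ratio of -0.50. Foxj2 had 4.04 and 4.15 TPM. Foxj1, which turns on genes of motile cilia, was low, with 0.61 TPM (47 counts) in replicate 1 and 0.26 TPM (18 counts) in replicate 2. Of 11 listed motile cilium genes 4 were detected, led by Rfx3, and of the 3 with a mean count of 50 or more 0 were called.

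Foxk2 had 7.76 TPM (1096 counts) in replicate 1 and 5.47 TPM (668 counts) in replicate 2, and Foxk1 had 2.46 TPM (550 counts) and 3.31 TPM (666 counts). Both repress autophagy genes and promote glycolysis. Their log2 ratios, 0.46 for Foxk2 and -0.53 for Foxk1, lay on either side of 0, and neither reached 2-fold. All 6 of their listed partners, led by Sin3b, were detected, with 0 called.

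Foxo factors are shut out of the nucleus by AKT. Foxo1, which the mouse embryo needs for its vessels, had 4.02 and 4.50 TPM in replicate 1 and replicate 2. Foxo3 had 2.84 and 3.68 TPM and Foxo4 2.13 and 2.01 TPM. Foxo6, known from brain, was below 1 TPM (13 and 4 counts). No Foxo gene was called, and the 17 of 18 listed target genes that were detected, led by Cat, Sod2 and Txnip, gave a median log2 ratio of -0.05. All 16 listed regulators, led by the 14-3-3 gene Ywhae (783 and 737 TPM), were detected, with 0 called.

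Foxh1 is the partner of SMAD proteins in Nodal signalling and has a role in the anterior heart field. It had 6.02 TPM (221 counts) in replicate 1 and 3.84 TPM (127 counts) in replicate 2, a ratio of 1.46-fold (95% counting interval 1.17 to 1.84). Of 12 listed genes of its pathway 7 were detected, among them Smad2 (37.6 and 38.3 TPM) and Acvr2b (23.4 and 21.4 TPM), and of the 6 with a mean count of 50 or more 0 were called.

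Foxc1 and Foxc2, which act together in the outflow tract, arch arteries and second heart field, were detected in both libraries. Foxc2 had 12.3 TPM (982 counts) in replicate 1 and 10.5 TPM (755 counts) in replicate 2, and Foxc1 had 2.44 TPM (286 counts) and 1.83 TPM (193 counts). The log2 ratios of 0.13 for Foxc2 and 0.32 for Foxc1 were both short of a call.

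Foxf1, a Hedgehog-responsive gene of the mesoderm around gut and lung, was the abundant member that differed most. It had 34.4 TPM (2421 counts) in replicate 1 and 2.61 TPM (166 counts) in replicate 2, a ratio of 12.3-fold (95% counting interval 10.5 to 14.4). Foxf2, expressed in mesenchyme of the palate and gut, had 2.86 TPM (197 counts) in replicate 1 and 0.11 TPM (7 counts) in replicate 2, a ratio of 23.7-fold (11.3 to 59.6). Foxf genes took 11.2% of the forkhead TPM in replicate 1 and 1.12% in replicate 2. The mean Foxf1 level of 18.5 TPM has an SD of 22.5 and describes neither pool.

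Of 7 listed genes of the Hedgehog response, 5 were detected and 4 were called higher in replicate 1, as the Foxf genes were: Ptch1, the receptor (10.0 and 4.64 TPM), Gli2 (6.11 and 1.87 TPM), Hhip (4.15 and 0.64 TPM) and Gli1 (3.54 and 0.62 TPM). The list's median log2 ratio was 1.15, against 0.00 for all genes. Foxl1, a Hedgehog-responsive factor of gut mesenchyme, was also called, with 1.69 TPM (134 counts) in replicate 1 and 0.45 TPM (32 counts) in replicate 2, a ratio of 3.52-fold (2.38 to 5.35).

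Foxa genes, the pioneer factors of endoderm and liver, had most of their counts in replicate 1. Foxa3 had 7.27 TPM (425 counts) in replicate 1 and 0.30 TPM (16 counts) in replicate 2, a ratio of 22.3-fold (13.6 to 39.4). Foxa2 had 3.38 TPM (204 counts) in replicate 1 and 0.30 TPM (11 counts) in replicate 2, a ratio of 15.6-fold (8.53 to 31.7). Foxa1 had 60 counts in replicate 1 and 6 in replicate 2, a ratio of 8.41-fold (3.64 to 23.8), with a mean count too low for a call. The subfamily summed to 11.3 TPM in replicate 1 and 0.67 TPM in replicate 2.

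Markers of other tissues differed between the pools as well. Over all genes with a mean count of 50 or more, 4.74% were called higher in replicate 1 and 2.31% in replicate 2. Of 10 listed liver primordium markers 9 were called higher in replicate 1, led by Afp (737 and 27.6 TPM), Apoa2 and Ambp, and the list summed to 1346 TPM in replicate 1 and 76.6 TPM in replicate 2. Among 10 foregut and pharyngeal endoderm markers, all 8 with a mean count of 50 or more were called higher in replicate 1. They were led by Krt8 (175 and 76.6 TPM), Krt18 and Cldn6, and the list summed to 395.8 and 158.8 TPM. Of 10 second heart field and outflow tract markers 7 were called higher in replicate 1. Among the 7 were Isl1 (22.7 and 5.94 TPM) and Tbx1 (5.86 and 1.00 TPM). Wnt11 (24.2 and 24.35 TPM) and Sema3c (21.2 and 24.0 TPM), the most abundant of the list, were not called. Their log2 ratios were -0.09 and -0.37. The list summed to 104.0 and 65.8 TPM. In the other direction, 3 of 10 heart muscle markers (Myl2, Nppa and Myh7) were called higher in replicate 2, and the list summed to 21557 TPM in replicate 1 and 35861 TPM in replicate 2. What these tissues contributed to the forkhead differences was not tested.

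**Figure D2:**
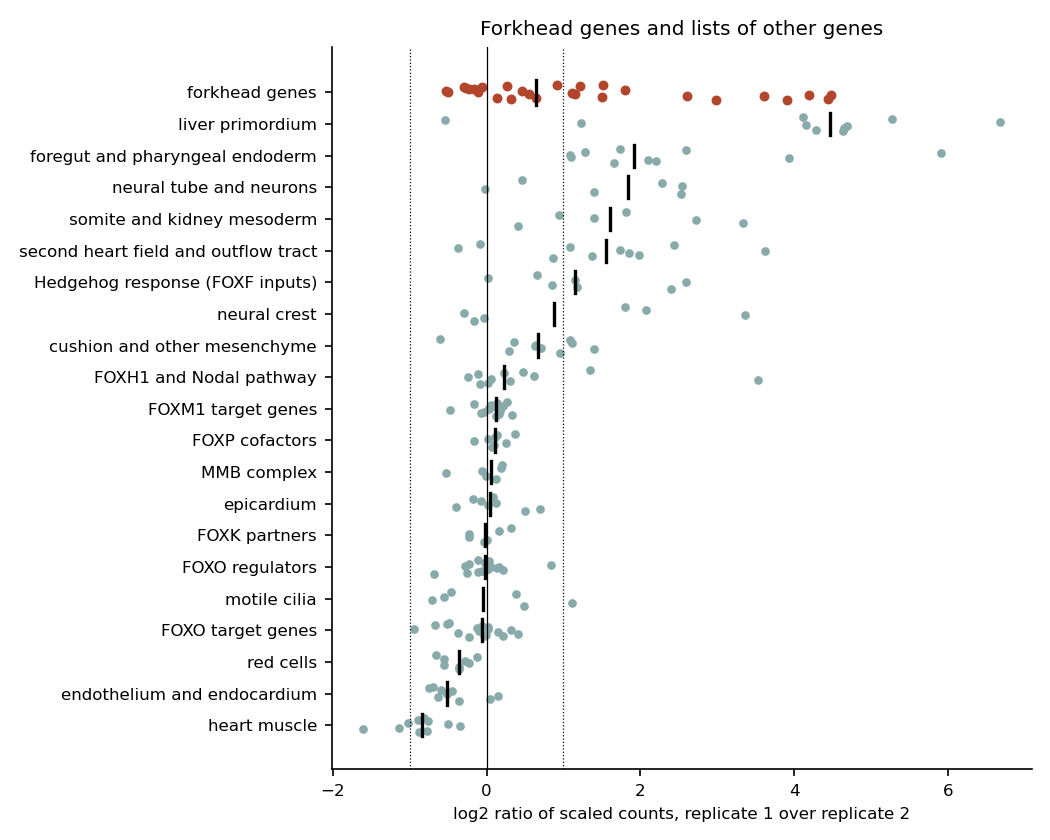
Log2 ratio of scaled counts (replicate 1 over replicate 2) of forkhead genes (top row) and of 20 lists of other genes, for genes with a mean count of 10 or more. Each point is a gene and each black bar a median; dotted lines mark 2-fold. The liver list has the highest median, 4.46, the heart muscle list the lowest, -0.85, and the forkhead genes have a median of 0.64.

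Smaller lists behaved in different ways. Among 8 somite and kidney mesoderm markers, 4 had a mean count of 50 or more and 3 were called higher in replicate 1 (Osr1, Tcf15 and Pax1). Among 8 neural markers, 3 had that mean count and 2 were called higher in replicate 1 (Pax3 and Dcx). Among 8 neural crest markers, 5 had it and 2 were called in that direction (Tfap2b and Sox10). All 10 mesenchyme markers had it and 3 were called in that direction (Lum, Prrx1 and Twist1). Of the 10 endothelial, 8 epicardial and 8 red cell markers, all of them detected, 0 were called in either direction. Their median log2 ratios were -0.52, 0.05 and -0.36 in that order, against 0.00 over all genes with a mean count of 10 or more. Ratios above 0 were found in 2 of the 10 endothelial, 5 of the 8 epicardial and 0 of the 8 red cell markers. The summed endothelial level was 376.5 TPM in replicate 1 and 447.8 TPM in replicate 2.

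Foxe1, the thyroid factor, had 1.35 TPM (111 counts) in replicate 1 and 0.20 TPM (15 counts) in replicate 2, a ratio of 6.22-fold (3.61 to 11.5). Foxd2, a gene of paraxial and kidney mesenchyme, had 1.08 TPM (82 counts) and 0.35 TPM (24 counts), a ratio of 2.87-fold (1.80 to 4.74). Foxi2 had 1.71 TPM (130 counts) and 0.72 TPM (49 counts), a ratio of 2.23-fold (1.59 to 3.17). All 3 were called higher in replicate 1 and none reached 1 TPM in replicate 2. With spike-in scaling Foxi2 had a log2 ratio of 0.85 and was not called. All 3, and Foxl1, have a mean count under 100 and were not called with that minimum.

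**Figure D3:**
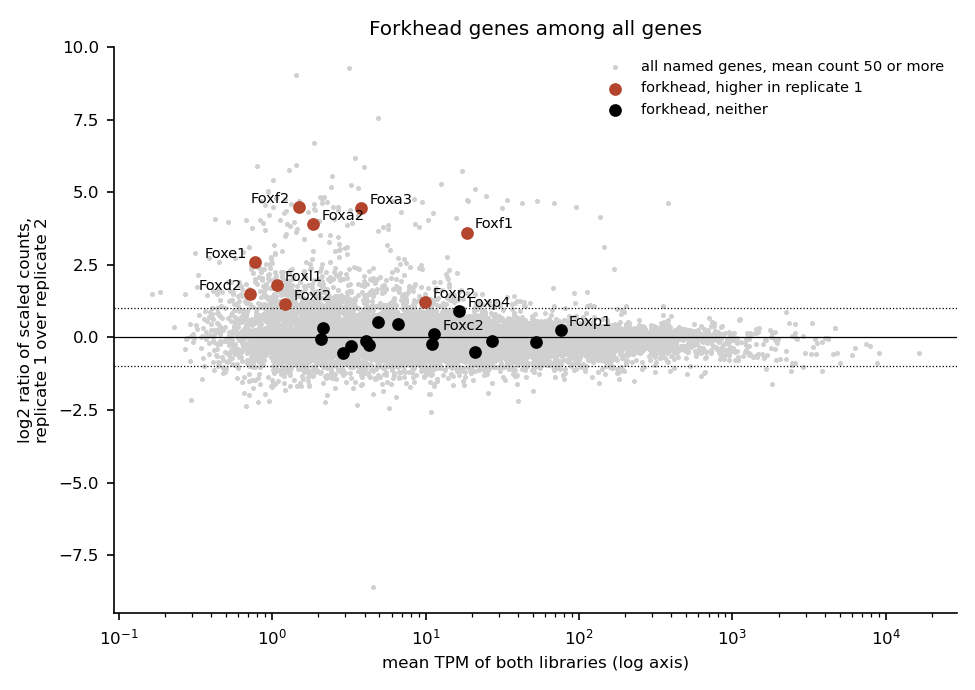
Log2 ratio of scaled counts (replicate 1 over replicate 2) against mean TPM (log axis) of the 24 forkhead genes with a mean count of 50 or more, over all named genes with that mean count in grey. Red points are the 9 called members and black points the other 15; dotted lines mark 2-fold. The called members lie above the upper line, and no forkhead gene lies below the lower one.

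Most of the other genes below 1 TPM in both libraries rested on few counts. Foxq1 had 17.7 and 5.15 counts, a ratio of 3.03-fold (1.08 to 10.4). Foxd1, of kidney stroma, had 17 and 9 counts, and Foxs1, known from pericytes, had 11 and 6; the counting intervals of both ratios included equality. Foxd3, a neural crest factor that also stands in that marker list, had 10 counts in replicate 1 and 0 in replicate 2, the same counts, and so the same limits, as Foxn1. Foxe3, the lens factor, had 1 count in replicate 1 and 11 in replicate 2, or 13.1-fold higher in replicate 2 (95% counting interval 1.90 to 563). Foxl2, of the ovary, had 1 and 0 counts, and Foxr2 had 0 and 2. Foxb1, Foxb2, Foxd4, Foxi1, Foxi3, Foxn4 and Foxr1 had 0 in both, which allows up to 3 counts in each library.

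By mean TPM the order began with Foxp1, Foxn3, Foxm1, Foxj3, Foxf1, Foxp4, Foxc2, Foxn2, Foxp2 and Foxk2. Of the 21 neighbouring pairs in the order of members at a mean of 1 TPM or more, 4 had ranges over the libraries that did not overlap. They were Foxp1 over Foxn3, Foxn3 over Foxm1, Foxm1 over Foxj3, and Foxk1 over Foxc1. The last pair was barely apart, at 2.46 and 2.44 TPM in replicate 1, where their deposited TPM intervals overlapped. The other 17 did not differ beyond their spread. The first 4 members held 55.4% of the forkhead TPM in replicate 1 and 69.7% in replicate 2.

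Several members lie beside each other in the genome, and neighbours differed in their ratio. On chromosome 8, Foxf1 (chr8:121084386-121088144), Foxc2 (chr8:121116171-121118895) and Foxl1 (chr8:121127940-121130644) are on the plus strand, 28.0 and 9.04 kb apart. Between Foxf1 and Foxc2 lies 1 further protein-coding gene, and 0 lie wholly between Foxc2 and Foxl1. The log2 ratios of Foxf1, Foxc2 and Foxl1 were 3.61, 0.13 and 1.80. Foxc2 was thus at like levels in both pools between forkhead neighbours that were not. On chromosome 13, Foxq1, Foxf2 and Foxc1 lie 64.8 and 175.2 kb apart with no protein-coding gene between. Foxf2 had a log2 ratio of 4.48 and Foxc1 one of 0.32. On chromosome 4, Foxd2 and Foxe3 are 16.3 kb apart and had ratios on opposite sides of 0, though Foxe3 rests on few counts.

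**Figure D4:**
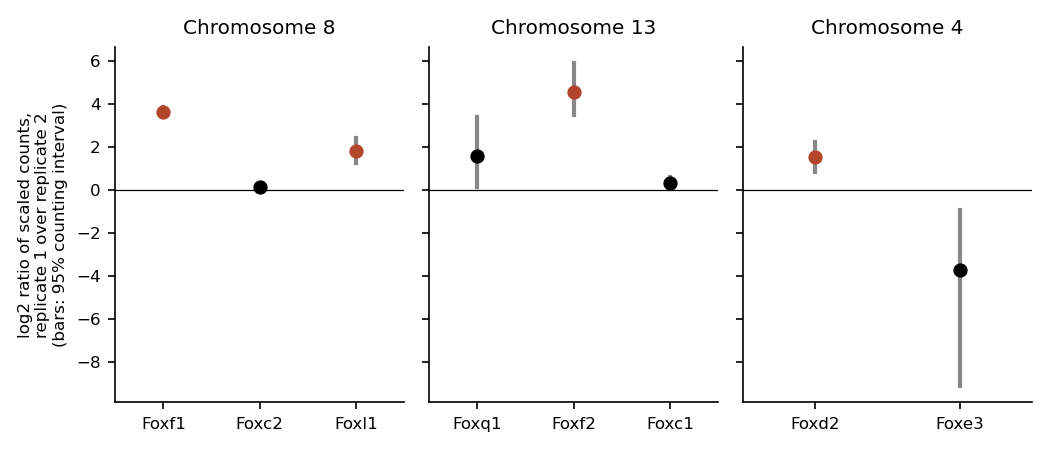
Log2 ratio of scaled counts (replicate 1 over replicate 2) of forkhead genes that lie together on chromosomes 8, 13 and 4, in their order along the chromosome. Bars are 95% counting intervals and red marks a called gene. Foxf1 and Foxf2 stand above their Foxc neighbours in both clusters, and Foxe3 lies below 0.

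Noncoding neighbours were measured too. Fendrr, a long noncoding RNA whose start lies 1276 bp from that of Foxf1 on the opposite strand, had 5.61 TPM (263 counts) in replicate 1 and 0.51 TPM (25 counts) in replicate 2. Its log2 ratio was 3.12 and it was called higher in replicate 1, as Foxf1 was. At Foxf2, 1700018A04Rik starts 24 bp away and had 25 and 3 counts. Foxd2os starts 384 bp from Foxd2 and had 3.09 and 2.44 TPM, a log2 ratio of 0.40 and not called, unlike Foxd2. Rhno1, a protein-coding gene that starts 56 bp from Foxm1 on the opposite strand, had 100.8 and 82.5 TPM. Gm20388, annotated over Foxf1, Foxc2 and Foxl1 on their strand, had 4.31 and 2.03 TPM. The sources used here do not give whether counting used strand, and reads of overlapping genes are therefore uncertain.

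Transcript shares were examined in the 10 members at a mean of 5 TPM or more, 8 of which have several listed transcripts. Foxf1 and Foxc2 have 1 each. Shares are of the gene's TPM, and a read is divided among the transcripts it matches, so each share is an estimate. Foxp1 has 32 listed transcripts. Foxp1-225 (1848 nt) held 48.6% in replicate 1 and 50.3% in replicate 2, and Foxp1-204 (7177 nt) held 12.9% and 10.7%. By expected count, which is not divided by length, Foxp1-225 held 31.7% and 34.5% and Foxp1-204 34.05% and 29.7%, so by count Foxp1-204 came first in replicate 1 and Foxp1-225 in replicate 2.

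Taken by start site, the 4 Foxp1 transcripts that begin within 200 nt of the start in the downstream window printed above held 42.6 TPM in replicate 1 and 37.6 TPM in replicate 2. Those of the middle window held 8.38 and 5.96 TPM. Those of the upstream window held 1.21 and 0.56 TPM. A further start at position 99435345 gave 10.8 and 7.31 TPM, and that at 99163018 gave 8.31 and 7.77 TPM. By TPM the downstream window, the densest in CG of the 3, was at the start with the highest level in both libraries. By count the order differed in replicate 1, where the start at 99435345 had 2329 counts and the downstream window's transcripts 2228, against 1419 and 1803 counts in replicate 2.

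The leading Foxp2 transcript differed between the pools. Foxp2-207 (6760 nt) held 34.7% of the gene's TPM in replicate 1 and 15.1% in replicate 2, with 954 and 170 counts, and the deposited TPM intervals did not overlap. Foxp2-201 (5647 nt) held 13.9% and 27.4%, with 318 and 255 counts and overlapping intervals. The 4 transcripts that start between positions 14901349 and 14901478 on chromosome 6 had 1110 counts in replicate 1 and 269 in replicate 2, a log2 ratio of 1.79. The 6 that start 281 kb or more downstream, between positions 15184647 and 15185563, had 555 and 349 counts, a log2 ratio of 0.42. The upstream starts held 51.1% of the gene's TPM in replicate 1 and 45.6% in replicate 2. By count, which is not divided by length, they held 63.2% in replicate 1 and 42.5% in replicate 2.

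**Figure D5:**
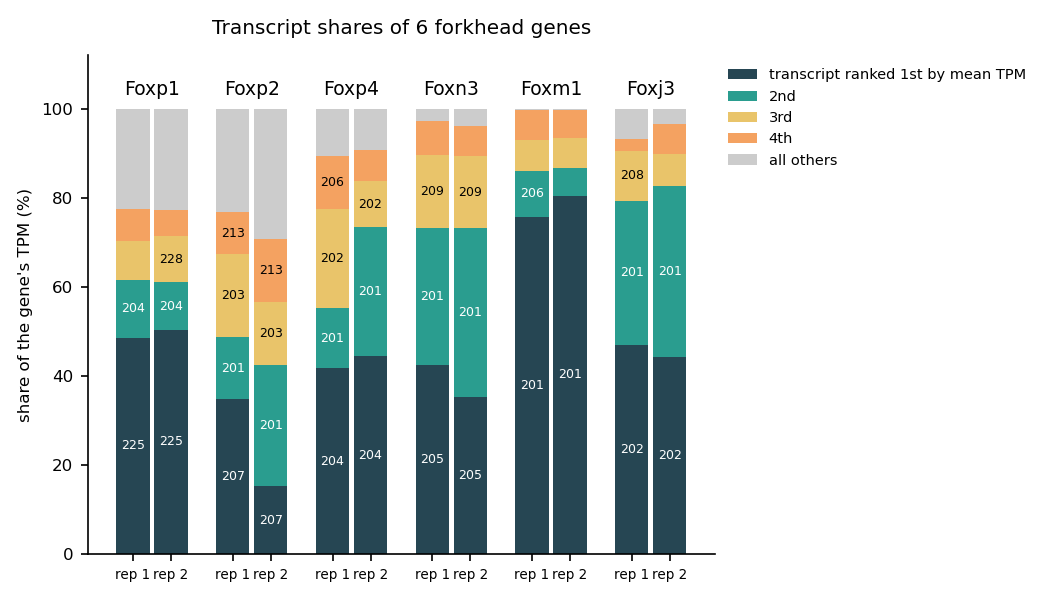
Share of the gene's TPM (percent) held by each transcript of 6 abundant forkhead genes, with replicate 1 left of replicate 2. Colours rank transcripts by mean TPM and numbers are the transcript suffixes. The leading transcript of Foxp1 (225) holds close shares in both libraries, while that of Foxp2 (207) holds 34.7% in replicate 1 and 15.1% in replicate 2.

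In 3 other genes 1 transcript held most of the TPM in both libraries. Foxk2-201 held 93.8% in replicate 1 and 89.6% in replicate 2, Foxn2-201 held 87.1% and 90.4%, and Foxm1-201 held 75.7% and 80.4%. In Foxj3, Foxj3-202 held 46.9% and 44.3% and Foxj3-201 held 32.4% and 38.3%. In Foxp4, Foxp4-204 held 41.7% and 44.4% and Foxp4-201 held 13.7% and 29.0%. Foxp4-202, named after its values were seen, held 22.2% (476 counts) in replicate 1 and 10.4% (92.6 counts) in replicate 2. In replicate 1 its TPM interval was 2.54 to 6.84, against 0.67 to 4.64 for Foxp4-201. In replicate 2 the upper limit of Foxp4-202 was 2.23, against 0.58 to 4.08 for Foxp4-201. These intervals overlapped in each library, so which of the 2 came second was not resolved. In Foxn3, the short Foxn3-205 (566 nt) held 42.5% and 35.3% of TPM and 13.2% and 9.91% of counts. Foxn3-201 (2803 nt) held 30.7% and 37.9% of TPM and 55.1% and 61.7% of counts. By mean count, which is not divided by length, the order of the first 4 genes is Foxp1 (5810), Foxm1 (2732), Foxj3 (2476) and Foxn3 (2397).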

How the data were processed

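Total RNA of 2 pools of embryonic hearts was measured. The authors deposited, per library, a gene and a transcript table with expected counts (estimated reads per feature, not normalised), TPM, FPKM, and lower and upper limits of TPM credibility, handled as a score. Those limits surround a posterior mean, so a TPM can fall outside them. In the deposited transcript files a percent column states each transcript's part of its gene. The assembly was mm10 and the annotation GENCODE M4, per the labels and the authors' description; the sources used here do not give the quantifying program.

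Names and positions came from GENCODE M21; 42462 of 43346 genes matched. Expected counts were rounded and TMM-scaled in edgeR 4.0.16 (R 4.3.3) over 17547 genes with a mean count of 10 or more. Log2 ratios used a prior count of 0.5. Spike-ins (4.22% and 3.13% of counts) were left out except in 1 alternative. Fold intervals are exact conditional binomial intervals on rounded counts (95%). They and the floor of 3 counts cover counting error only and leave out variation between pools. Because reads were not tied to single molecules by identifiers, even the counting error may be larger than given. The rest used Python 3.11.15, numpy 2.4.6, pandas 2.3.3 and scipy 1.17.1, with DESeq2 1.42.0 for alternative size factors. Scripts were tested on simulated data. The forkhead family was taken up, and the lists were chosen, with earlier results of these data known, although membership follows from the symbol. Every member may be named, but 1 member and 1 gene of a list are counted and their own values are not reported here; of each list, the 3 most abundant genes and those called; of neighbours, genes that overlap a member or start within 5 kb; and, of transcripts, the leading 2 per abundant member. Sds3 and Gdf1, in the lists, were not matched in the tables.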

Additional observations from a re-analysis of the deposited data

How the results depend on the processing

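The 9 members called higher in replicate 1 were called under each scaling tried except with spike-ins, which shifted all log2 ratios by -0.30 and left 7 (3.16% of all genes were called), without Foxi2 and Foxp2. Deposited TPM, which moved the median of all genes to 0.11, FPKM and a 1.5-fold limit each added Foxp4, giving 10. In these 3 settings 5.40%, 5.52% and 8.58% of all genes were called in that direction. A mean count minimum of 100 left 5 (3.51% of all genes), and no minimum gave 14 (2.71% of all genes), with Foxa1, Foxd3, Foxj1 and Foxn1 among those added. With no minimum, 1 member (Foxe3) was called higher in replicate 2 (1.04% of all genes), against 0 otherwise. Detection fell to 9 of the 44 members at 5 TPM, where 45.2% of all protein-coding genes were detected. With replicate 1 left out it was 17 of 44, against 57.7% of all protein-coding genes. With replicate 2 left out it was 24 of 44, against 59.9%. The leading subfamily's share was 33.5% by expected counts, and 34.9% to 36.2% with either library left out. The leading transcript was the same in 7 of 8 members by counts (not Foxn3), in 8 with replicate 2 left out and in 6 with replicate 1 left out (not Foxn3 and Foxp2). Ratios under about 50 counts are limited by depth. No paired analysis was possible because there is 1 group and the replicate numbers pair nothing.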
